A study of Caenorhabditis elegans with 6 samples.

Results

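Described here are 9 protein-coding genes known from infection responses of the Caenorhabditis elegans intestine, in div-1(or148) mutant larvae and in wild-type larvae. No infection is named among the conditions of the libraries. The genes were taken by name from the gene rows of a table of raw counts, 9 of 45836 gene rows. The names looked for were 10, but C32H11.12 and dod-24 are the sequence name and the gene name of 1 gene, which has 1 row. The genes are F08G5.6 (now irg-4), T24B8.5 (now sysm-1), irg-1, irg-2, C49G7.10, C17H12.8, dod-22, dod-24 and K08D8.5. The row for irg-1 is the gene with sequence name C07G3.2. They were chosen by earlier results of the counts in this same mutant and wild-type contrast. Their levels, fold changes, intervals and calls are therefore a description of these libraries and no independent test.

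RNA was counted in 6 libraries of whole first-stage (L1) larvae, 3 of each strain, which the labels call biological replicates. The mutant libraries came from strain BCN6101, which holds div-1(or148) and the pdaf-21::mCherry reporter, and the wild-type libraries from strain BCN1050, which holds the same reporter in the N2 background. Each group is thus 1 strain. Embryos from worms fed OP50 bacteria at 20 °C were freed by bleaching and hatched overnight in M9 buffer, so the larvae of both groups had not fed. The protein DIV-1 belongs to the enzyme that primes new DNA strands, and the title of the series asks how impaired DNA replication affects chromatin repression.

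C. elegans eats bacteria and has no circulating immune cells, so its intestinal cells carry much of the defence themselves. Pathogens in the gut are answered by a p38 kinase cascade, in which TIR-1, NSY-1, SEK-1 and PMK-1 act in turn on the transcription factor ATF-7. The bZIP factor ZIP-2 drives another set of genes when Pseudomonas aeruginosa or blocked translation disturbs the cell. Many of the products are secreted, among them lysozymes, lectins and proteins with a CUB-like domain. T24B8.5, which encodes a small protein with a ShK toxin-like domain, is the standard reporter gene of the p38 cascade. irg-1 and irg-2 are named as infection response genes, and irg-1 is the standard reporter gene of ZIP-2. F08G5.6, C17H12.8, K08D8.5, dod-22 and dod-24 encode proteins with a CUB-like domain, and the dod genes are named as lying downstream of the insulin-pathway factor DAF-16.

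Total counts per library lay between 25051167 and 27632878. div-1 itself stood at 35.1 ± 8.45 CPM (counts scaled to a common library size with TMM factors; SD, n = 3) in mutant larvae, against 32.7 ± 9.59 CPM in wild-type larvae. or148 changes the sequence of the gene, so this level does not check it. All mutant libraries also had little mut-16, a small RNA pathway gene named here after its value was seen, at 6.52 ± 1.84 CPM in mutant larvae, against 51.9 ± 1.46 CPM in wild-type larvae. The div-1 allele and low mut-16 cannot be told apart in any difference below. The first 2 principal components of log2 CPM took 41.6% and 29.8% of the variance, and library 1 of the mutant and library 3 of the wild type lay apart from the others of their groups on both.

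All 9 genes passed the filter on low counts. In the fit across all 16289 genes tested (quasi-likelihood test of edgeR, threshold of 0.05 on the Benjamini-Hochberg adjusted p), 4 of the 9 were called higher in the mutant, and none lower, against 0.884% and 0.0123% of all genes. The 4 were T24B8.5, F08G5.6, irg-2 and C49G7.10. In 5 of the 9, irg-1 being the fifth, all mutant libraries lay above all wild-type libraries, and in 0 they all lay below, which held for 10.2% and 7.73% of all genes. The groups overlapped in the other 4, which were C17H12.8, dod-22, dod-24 and K08D8.5. Of the log2 fold changes, mutant over wild type, 7 of 9 were above 0 and the median was 0.64, and the median of all genes tested was -0.03. Nothing is read from these counts, since the genes were chosen with them known.

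**Figure D1:**
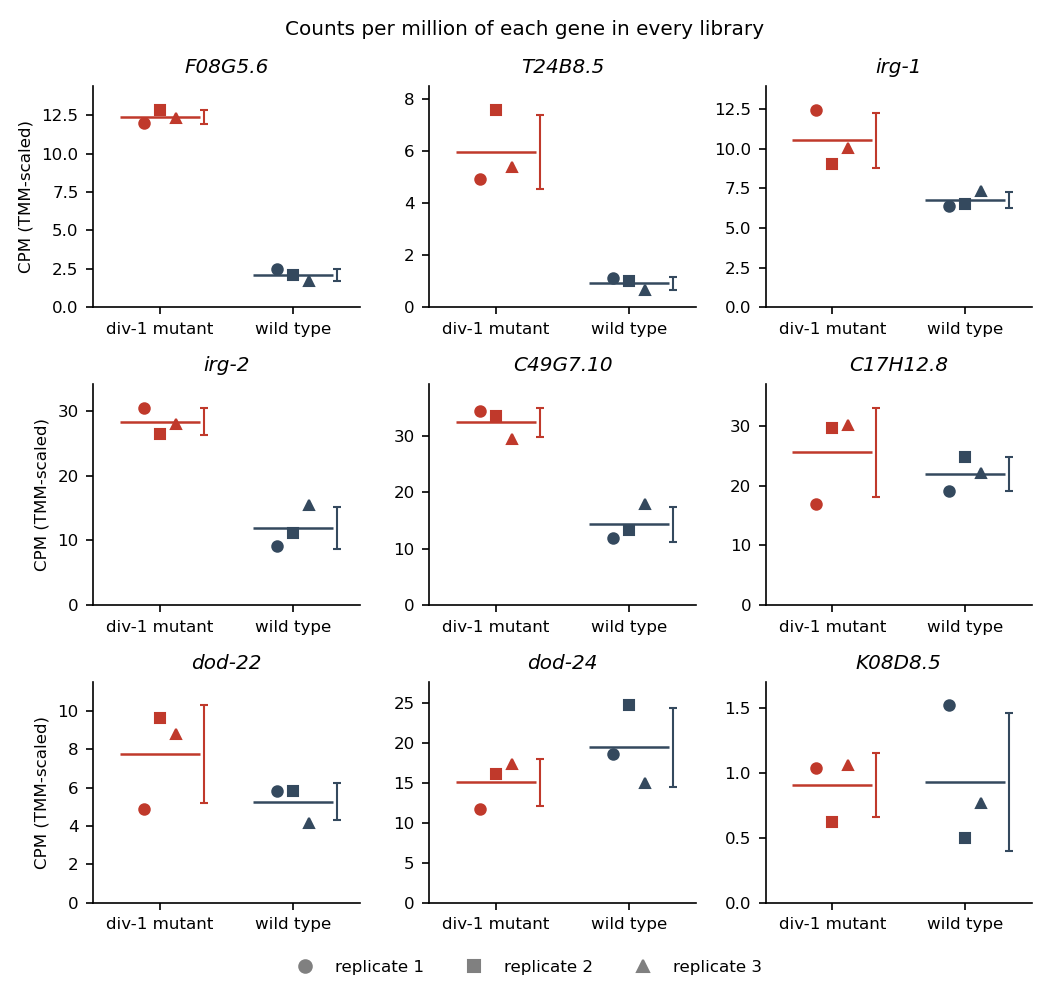
CPM (TMM-scaled, y axis from 0) of the 9 genes in each library, div-1 mutant in red on the left and wild type in blue on the right of each panel; symbols are the replicates, lines the group means and bars the SD (n = 3). In the panels F08G5.6, T24B8.5, irg-1, irg-2 and C49G7.10 every mutant point is above every wild-type point, and in the other 4 the groups overlap.

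T24B8.5 and F08G5.6 differed most between the groups. T24B8.5 stood at 4.94, 7.58 and 5.39 CPM in the 3 mutant libraries, against 1.11, 0.993 and 0.645 CPM in the 3 wild-type libraries. Even the lowest mutant library was several times the highest wild-type library, at counts of 138, 184 and 143 in mutant libraries and 27, 26 and 16 in wild-type libraries. The fold change was 6.49, with a 95% interval of 4.03 to 10.5 (log2 fold change 2.70, SE 0.30), and it ranked 30 among the 16289 genes by fold change. F08G5.6 stood at 12.0, 12.9 and 12.3 CPM in the mutant libraries, against 2.46, 2.1 and 1.73 CPM in the wild-type libraries. The mutant libraries were close to each other, with an SD of 0.440 CPM, and far from the wild type. Its fold change was 5.90, with a 95% interval of 4.30 to 8.08 (log2 fold change 2.56, SE 0.20). Over 16 alternative fits of the same counts, the log2 fold change lay between 2.48 and 2.85 for T24B8.5 and between 2.43 and 2.68 for F08G5.6.

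irg-2 and C49G7.10 were higher to a lesser degree. Their wild-type libraries stood in the same order, while the lowest mutant library was library 2 for irg-2 and library 3 for C49G7.10. irg-2 stood at 30.5, 26.5 and 27.96 CPM in the mutant libraries, against 9.06, 11.15 and 15.5 CPM in the wild-type libraries. C49G7.10 stood at 34.3, 33.5 and 29.4 CPM in the mutant libraries, against 11.9, 13.3 and 17.9 CPM in the wild-type libraries. In both genes wild-type library 3 came nearest to the mutant and wild-type library 1 lay farthest from it. The fold change of irg-2 was 2.38, with a 95% interval of 1.71 to 3.32 (log2 fold change 1.25, SE 0.21). That of C49G7.10 was 2.26, with a 95% interval of 1.69 to 3.01 (log2 fold change 1.17, SE 0.18). Neither was past the threshold under the replicate block, nor with any 1 mutant library left out, nor without wild-type library 1 or 2, though each kept a log2 fold change of at least 1.05. Both stayed past it without wild-type library 3, at 1.48 for irg-2 and 1.36 for C49G7.10. Epidermis markers also stood higher in wild-type library 3 than in the other wild-type libraries, as given below for the whole list, and their part in these values was not tested.

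irg-1, the ZIP-2 reporter gene, differed least among the 5 genes without overlap. It stood at 12.5, 9.03 and 10.1 CPM in the mutant libraries, against 6.396, 6.53 and 7.34 CPM in the wild-type libraries. The lowest mutant library lay just above the highest wild-type library. Its fold change was 1.56, with a 95% interval of 1.16 to 2.09 (log2 fold change 0.64, SE 0.18). It did not pass the threshold over all genes, here or in any of the 16 alternatives.

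In the other genes with a CUB-like domain the groups overlapped. C17H12.8 stood at 16.9, 29.7 and 30.1 CPM in the mutant libraries, against 19.1, 24.7 and 22.2 CPM in the wild-type libraries. dod-22, on a lower level, stood at 4.87, 9.60 and 8.78 CPM in the mutant libraries, against 5.82, 5.84 and 4.15 CPM in the wild-type libraries. In both genes div-1 mutant library 1 fell among or below the wild-type libraries, while mutant libraries 2 and 3 lay above all of them. The log2 fold change was 0.22 (SE 0.24, 95% interval -0.33 to 0.76) for C17H12.8 and 0.55 (SE 0.29, 95% interval -0.12 to 1.22) for dod-22. dod-24 stood at 11.7, 16.1 and 17.4 CPM in the mutant libraries, against 18.6, 24.7 and 15 CPM in the wild-type libraries. It was the gene with the lowest fold change of the 9, a log2 fold change of -0.37 (SE 0.23, 95% interval -0.90 to 0.16), and div-1 mutant library 1 was again the lowest mutant library. Without that library its log2 fold change was -0.22 and that of dod-22 was 0.80, and neither was past the threshold.

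K08D8.5 was the least abundant of the 9 and the least informative. It had 29, 15 and 28 counts in the mutant libraries, against 37, 13 and 19 counts in the wild-type libraries. Wild-type library 1 was the highest of all, at 1.52 CPM. The log2 fold change was -0.02 (SE 0.45). Its 95% interval of -1.07 to 1.02 takes in a doubling either way, so a change of that size is not excluded by these libraries. Its sign changed in 6 of the 16 alternatives. Wild-type library 1 also stood apart in some fasting response genes, chiefly acs-2, hacd-1 and icl-1, and not in others such as lipl-2. acs-2, an acyl-CoA synthetase gene, had 879 CPM in that library and between 1.95 and 7.84 CPM in the other 5. Of the 10 fasting response genes tested, edgeR, limma voom and DESeq2 called 0. At an unadjusted p under 0.05 in edgeR, 2 of the 10 were lower and 0 higher, beside 398 and 1346 of all 16289 genes. The 2 were acs-2 and hacd-1, whose difference lay in wild-type library 1. The summed level of the list was 857 to 1184 CPM in mutant libraries, against 5263, 873 and 1252 CPM in wild-type libraries. Without wild-type library 1 the log2 fold change of K08D8.5 was 0.52, the highest of the 16 alternatives, and not past the threshold. The part of the fasting response difference in the level of K08D8.5 was not tested.

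**Figure D2:**
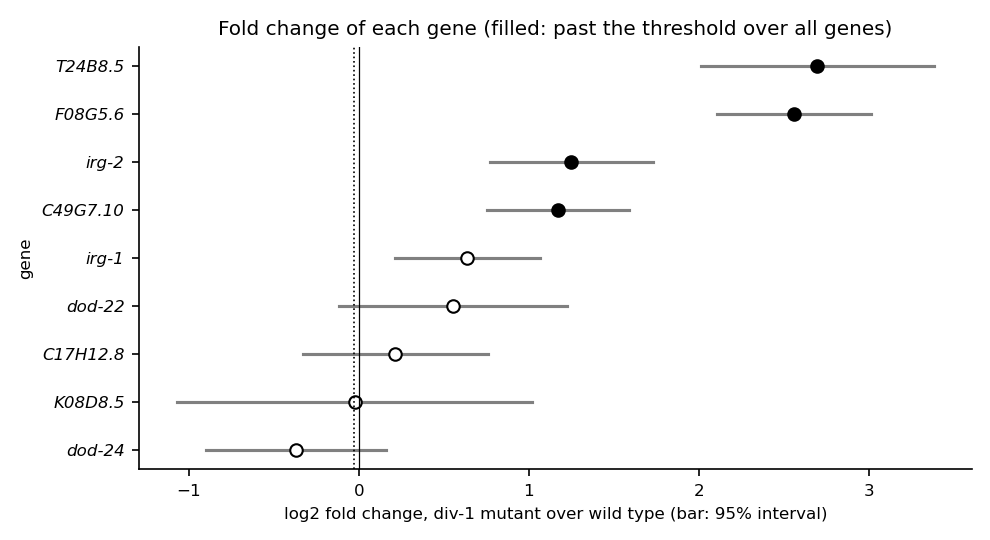
Log2 fold change, div-1 mutant over wild type (x axis), of each of the 9 genes (y axis), with 95% intervals as bars; filled points were past the threshold over all genes, the solid vertical line is 0 and the dotted line the median of all genes tested. T24B8.5 and F08G5.6 lie near 2.70 and 2.56, irg-2 and C49G7.10 near 1.25 and 1.17, and the intervals of the 4 lowest genes include 0.

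Per length of exon, the order of the genes differed between the strains. In the mutant, C49G7.10 led with 34.0 ± 2.76 CPM per kilobase (SD, n = 3), followed by irg-2 with 24.4 ± 1.77 and C17H12.8 with 23.3 ± 6.87. irg-1, dod-24, T24B8.5 and F08G5.6 followed between 14.0 and 11.24 CPM per kilobase, then dod-22 with 6.18 and K08D8.5 with 0.846. In the wild type, C17H12.8 led with 20.0 ± 2.59 CPM per kilobase, followed by dod-24 with 16.8 ± 4.24 and C49G7.10 with 15.1 ± 3.26. irg-2 and irg-1 came next with 10.2 and 9.01 CPM per kilobase, then dod-22 with 4.20, T24B8.5 with 1.95, F08G5.6 with 1.90 and K08D8.5 with 0.867. The library ranges of most genes next to each other in these orders overlapped. The exceptions were C49G7.10 over irg-2, F08G5.6 over dod-22 and dod-22 over K08D8.5 in the mutant, and irg-1 over dod-22, dod-22 over T24B8.5 and F08G5.6 over K08D8.5 in the wild type. Over all 6 libraries 4 of the 9 genes were above the median of 12.0 CPM per kilobase of the tested genes.

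The profiles over the 6 libraries were compared for each pair of genes. Likeness was taken as the root mean square difference of log2 CPM after each gene was centred on its own mean. The difference between the groups, with which the genes were chosen, is therefore part of it. Of the 36 pairs among the 9 genes, irg-2 and C49G7.10 were the closest, at 0.11, then F08G5.6 and T24B8.5 at 0.20, and C17H12.8 and dod-22 at 0.27. The next pair, irg-1 and C49G7.10, followed closely at 0.33. Some genes outside the 9 were nearer still to T24B8.5 and to C17H12.8, as given under other observations. The pair farthest apart was T24B8.5 and dod-24, at 1.54. Within the wild type, F08G5.6 and T24B8.5 were lowest in library 3, the library in which irg-2, C49G7.10 and irg-1 were highest.

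The chromosome holds the closest pair side by side. In the WBcel235 annotation of Ensembl release 115, irg-2 and C49G7.10 are direct neighbours on chromosome V on opposite strands, with their starts facing each other and no protein-coding gene between them. irg-1 lies on the same chromosome with 130 protein-coding genes between it and C49G7.10. K08D8.5, dod-24 and dod-22 lie in 1 stretch of chromosome IV with 10 protein-coding genes between the first and the second and 6 between the second and the third. F08G5.6 and C17H12.8 are elsewhere on chromosome IV, and T24B8.5 is on chromosome II. An exon of C17H12.8 overlaps the piRNA locus 21ur-13425, whose row held 15 to 38 counts per library, and the other 8 genes share no exon bases with another annotated gene. The CUB-like genes are relatives, and with inserts of 18 to 36 bases their reads may be hard to keep apart.

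Genes around the 9 were mostly not called. Of the 5 nearest protein-coding genes on each side, 55 genes other than the 9 were tested, and 1 rose, which is 1.82%, against 0.896% of all genes called in either direction. Of the 55 log2 fold changes, 36 were above 0 and the median was 0.17, and 14 had all mutant libraries above the wild type and 1 below, against 10.2% and 7.73% of all genes. The gene that rose was H20E11.2, near C17H12.8, which had 2.04, 0.948 and 1.92 CPM in the mutant libraries, against 0.246, 0.382 and 0.323 CPM in the wild-type libraries (log2 fold change 2.35, edgeR adjusted p = 0.0488). Its level is low. No neighbour was called with DESeq2 size factors, the stricter filter, the replicate block, limma voom or protein-coding genes only. The same held without mutant library 1 or 3 or wild-type library 1 or 2. DESeq2 itself called 7 of the 55, beside 541 higher and 15 lower of all 16289 genes. With library size only or without a filter, 2 neighbours were called. Of the 55, 5 are also in the list of infection-response genes below and 1 tested gene, dod-17, is in the dod list.

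Directly beside K08D8.5 lies C32H11.1 (now irg-6), with only 32, 12 and 15 counts in the mutant libraries, against 5, 4 and 4 counts in the wild-type libraries.

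On chromosome V the values near irg-2 were mixed. The following genes are named after their values were seen, and none of them passed the threshold. C49G7.12, next to C49G7.10, had 13.6, 16.6 and 13.4 CPM in the mutant libraries, against 7.22, 8.32 and 6.53 CPM in the wild-type libraries (log2 fold change 0.98, edgeR adjusted p = 0.0548). C49G7.7 had a log2 fold change of 0.95 and K09D9.1, the fifth gene before C49G7.10, of 1.29 with 55.6, 36.9 and 39.0 CPM in the mutant libraries, against 13.2, 14.6 and 25.9 CPM in the wild-type libraries. On the other side of irg-2, phat-3 had a log2 fold change of -0.42 and phat-7, which the table lists as C49G7.3, of -0.32, with overlapping groups, while srh-169 beyond them, at under 1 CPM in every library, had 1.85 without overlap. F08G5.6 sits between the lectin genes clec-184 and clec-185, whose log2 fold changes were 0.58 and 0.27 with overlapping groups.

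**Figure D3:**
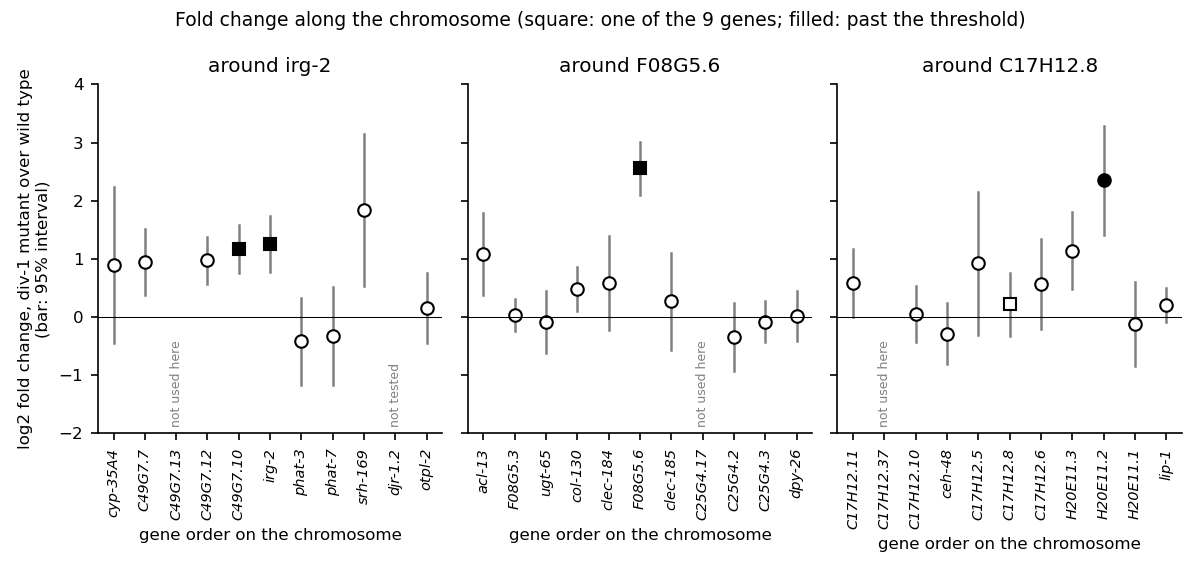
Log2 fold change, div-1 mutant over wild type (y axis, bars are 95% intervals), of irg-2, F08G5.6 and C17H12.8 (squares, with C49G7.10 as a square beside irg-2) and of the 5 protein-coding genes on each side in chromosome order (x axis); filled symbols were past the threshold. F08G5.6 at 2.56 stands above all its tested neighbours, while C49G7.12 at 0.98 and C49G7.7 at 0.95 lie near C49G7.10 at 1.17 and phat-3 at -0.42 lies below them.

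The p38 cascade upstream of T24B8.5 had no gene called. Of 11 tested genes, 6 had a positive and 5 a negative log2 fold change, with a median of 0.00 beside the median of -0.03 of all genes. edgeR called 0 and limma voom 0, DESeq2 called 1, and 2 were higher at an unadjusted p under 0.05 in edgeR. Over all genes, DESeq2 called 541 higher and 15 lower, and in edgeR 1346 of the 16289 genes were higher at that unadjusted p and 398 lower. vhp-1, a phosphatase that switches MAP kinases off, had 377, 298 and 360 CPM in the mutant libraries, against 206, 220 and 223 CPM in the wild-type libraries (log2 fold change 0.67, edgeR adjusted p = 0.0922). tir-1, the adaptor at the head of the cascade, had a log2 fold change of 0.68 with overlapping groups (edgeR adjusted p = 0.35). The kinase genes, named after their values were seen, had log2 fold changes of 0.02 for nsy-1, -0.15 for sek-1 and -0.08 for pmk-1. These are transcript levels, and the activity of the kinases was not measured.

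Transcription factors and other regulators of gut immunity likewise had none of 21 called by edgeR, 0 by limma voom and 2 by DESeq2, with a median log2 fold change of 0.02. At an unadjusted p under 0.05 in edgeR, 3 were higher and 0 lower, beside 1346 and 398 of all 16289 genes. DESeq2 called 541 higher and 15 lower over all genes. cebp-1, a bZIP factor gene, had 167, 128 and 140 CPM in the mutant libraries, against 65.6, 73.5 and 91.2 CPM in the wild-type libraries (log2 fold change 0.92, edgeR adjusted p = 0.0629). pqm-1, a zinc finger factor gene of the insulin pathway, had 56.6 ± 3.99 CPM in mutant larvae, against 39.4 ± 4.05 CPM in wild-type larvae (SD, n = 3; log2 fold change 0.52, edgeR adjusted p = 0.158). zip-2, the third and named after its value was seen, had 1093, 735 and 849 CPM in the mutant libraries, against 621, 528 and 692 CPM in the wild-type libraries (log2 fold change 0.54, edgeR adjusted p = 0.378). In these 3 of the 21 genes all mutant libraries lay above the wild type, and in 0 all lay below, against 10.2% and 7.73% of all genes.

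Other infection-response genes of the gut showed a spread of values with none past the threshold. Of 29 genes, 26 were tested, edgeR and limma voom called 0 and DESeq2 called 7. At an unadjusted p under 0.05 in edgeR, 8 were higher and 1 lower, beside 1346 and 398 of all 16289 genes. Of the 26 log2 fold changes, 16 were above 0 and the median was 0.25. F35E12.5 (now irg-5) had 8.80, 16.8 and 8.78 CPM in the mutant libraries, against 3.98, 1.91 and 1.81 CPM in the wild-type libraries (log2 fold change 2.16, edgeR adjusted p = 0.0592). catp-3, an ATPase gene, had 15.4 ± 2.54 CPM in mutant larvae, against 8.11 ± 1.22 CPM in wild-type larvae (SD, n = 3; log2 fold change 0.93, edgeR adjusted p = 0.0823). Genes named after their values were seen included the lysozyme gene ilys-3 with a log2 fold change of 2.27, C32H11.1 (now irg-6) with 2.07 and irg-3 with 0.59, each with all mutant libraries above the wild type. That held for 8 of the 26, and in 0 all lay below, against 10.2% and 7.73% of all genes. The 1 lower gene was the alcohol dehydrogenase gene sodh-1, at 105, 163 and 177 CPM in the mutant libraries, against 5161, 199 and 144 CPM in the wild-type libraries. Its difference lay in wild-type library 1, the library with the high acs-2 level.

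Among other dod genes, dod-19 rose and the rest did not pass the threshold. dod-19 had 132, 106 and 120 CPM in the mutant libraries, against 38.5, 31.1 and 38.2 CPM in the wild-type libraries (log2 fold change 1.73, SE 0.15, edgeR adjusted p = 0.00324), and the list had 1 call in each of the 16 alternative fits. The 6 tested genes had 3 positive and 3 negative log2 fold changes with a median of -0.01. dod-18, named after its value was seen, had 4.12, 3.96 and 3.96 CPM in the mutant libraries, against 5.70, 5.34 and 5.32 CPM in the wild-type libraries, a log2 fold change of -0.44 without overlap but not past the threshold. dod-21, a neighbour of dod-24, had no count in any library.

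**Figure D4:**
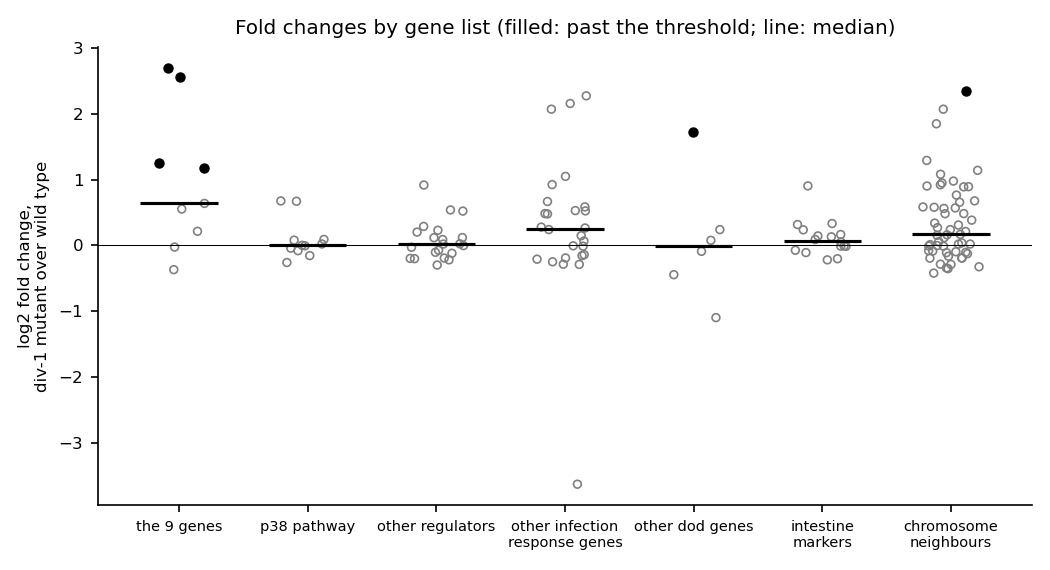
Log2 fold change, div-1 mutant over wild type (y axis), of the 9 genes and of the tested genes of 6 other lists (x axis); each point is a gene, filled where past the threshold, and lines are medians. The medians are 0.64 for the 9 genes, 0.00 for the p38 cascade, 0.02 for other regulators, 0.25 for other infection-response genes, -0.01 for other dod genes, 0.07 for intestine markers and 0.17 for chromosome neighbours.

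The intestine itself was measured through 16 marker genes, all with counts in every library. Their mean log2 CPM was 6.50, 6.44 and 6.50 in the mutant libraries, against 6.31, 6.22 and 6.53 in the wild-type libraries. The difference of 0.13 did not exceed the spread between libraries (two-sided exact permutation p = 0.4, where 3 against 3 libraries allow no p below 0.1). None of the 16 was called or had an unadjusted p under 0.05 in edgeR, and their log2 fold changes ran from -0.22 to 0.91. The 2 with the smallest p were mtl-2, at 0.91, and act-5, at 0.33, both with overlapping groups. The defining genes ges-1, a gut esterase, and elt-2, the gut GATA factor, are named after their values were seen. Their log2 fold changes were 0.14 and -0.22. The summed level of the markers was 3597 to 5150 CPM in mutant libraries, against 3913 to 4691 CPM in wild-type libraries. In RNA of whole larvae, fewer cells of a type and less RNA per cell cannot be told apart. Of 32 tested markers of epidermis, muscle, pharynx, neurons and germ line, 0 were called by edgeR and 0 had an unadjusted p under 0.05. The 8 epidermis markers summed to 1292 to 2240 CPM in the mutant, highest in library 1, and to 1504 to 3491 CPM in the wild type, highest in library 3.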

How the data were processed

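The values deposited by the authors are raw counts, unscaled, in 1 column for each library. Per the submitters' processing notes, the tools were TopHat2 2.1.0, featureCounts 1.5.0 and DESeq2 1.8.1. For the build, annotation and strand setting, nothing is given in the sources used here. The sample titles name mRNA, while per the labels' protocols a small RNA kit was used with inserts of 18 to 36 bases. Groups come from the sample titles.

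The 45836 gene rows set library sizes; 53925 repeat and 13 construct rows were left out. Of the gene rows, 44336 matched the WBcel235 annotation of Ensembl release 115 by name, which gave chromosome, order and exonic length. edgeR 4.0.16 in R 4.3.3 was used with TMM factors, the default expression filter and a robust quasi-likelihood fit (group as the sole term), two-sided, on 16289 genes, and was tested on simulated data. The common biological coefficient of variation was 0.224. Intervals of fold changes rest on 3 libraries a group. The edgeR p-values set the group difference against the spread between these libraries, moderated across all genes. With 1 strain a group, they do not cover a spread between strains. DESeq2 1.42.0 and limma 3.58.1 were alternatives.

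The genes and lists were chosen with earlier results of these data known. Named are the 9 genes, div-1, up to 4 called genes per list or otherwise the 2 with the smallest p, and the nearest profiles. No protein or promoter sequences were used here. A list of protein relatives was therefore not made.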

Additional observations from a re-analysis of the deposited data

How the results depend on the processing

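Each of the 9 genes kept its direction in all 16 alternative fits, except K08D8.5, whose log2 fold change lay between -0.33 and 0.52. Other scalings moved the median of all genes by at most 0.09. The 146 calls over all genes, 144 higher and 2 lower, depended on the processing. Higher and lower calls were 303 and 3 without a filter, 541 and 15 with DESeq2, 50 and 2 under the replicate block, and 34 to 113 and 2 to 3 with 1 library left out. Without mutant library 1 together with wild-type library 3, a fit added after seeing the data because these libraries deviated together, there were 233 higher and 8 lower. The cause of these shifts was not tested. Calls among chromosome neighbours were 1 as reported, 0 with DESeq2 size factors, the stricter filter, the replicate block, limma voom or protein-coding genes only, 2 with library size only or without a filter, 7 with DESeq2, and 0 to 1 with a library left out. Calls among other infection-response genes were 0 as reported, 1 with upper-quartile factors or library size only, 4 without a filter, 7 with DESeq2 and 2 without that pair. Calls among other regulators were 0 as reported, 1 with upper-quartile factors, without a filter or without that pair, and 2 with DESeq2, and the p38 cascade had 1 with DESeq2. Of the same-numbered libraries, those numbered 2 deviated together and the others did not (correlations across genes of -0.21, 0.48 and -0.285 for numbers 1, 2 and 3). Mutant library 1 was most like wild-type library 3 (0.60). Each group was centred on only 3 libraries, so these correlations cannot decide whether the replicate numbers pair the samples. In the column names of the counts, the numbers match between the groups for libraries 2 and 3 and differ for library 1. The intestine marker difference lay between 0.06 and 0.22 over its alternatives and stayed above 0. K08D8.5 had 13 to 37 counts per library, and the parts of depth and of the spread between libraries in its wide interval were not separated.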

Other observations

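Genes outside the 9 with the most similar profiles were looked up for the gene with the largest fold change, T24B8.5, and for the gene with the highest mean CPM, C17H12.8, among 11091 genes averaging 5 CPM or more. C50F7.5 was nearest to T24B8.5, with a root mean square difference of 0.17 in centred log2 CPM over 6 libraries. It stood at 96.0, 149 and 144.6 CPM in the mutant libraries, against 26.1, 22.6 and 12.7 CPM in the wild-type libraries, with mutant library 1 the lowest of its group and wild-type library 3 the lowest of all, as in T24B8.5. clx-1 and F14H12.3 followed at 0.25 and 0.26. The genes nearest to C17H12.8 were the globin gene glb-27 at 0.05, C09G1.2 at 0.06 and C13C4.7 at 0.08. glb-27 stood at 9.84, 18.1 and 16.5 CPM in the mutant libraries, against 11.6, 14.7 and 12.7 CPM in the wild-type libraries, so mutant library 1 was again the lowest.

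The summed level of the 5 genes without overlap was 94.2, 89.4 and 85.1 CPM in the mutant libraries, against 31.0, 34.0 and 43.1 CPM in the wild-type libraries. That of the other 4 was 34.5, 56.1 and 57.3 CPM in the mutant libraries, against 45.0, 55.8 and 42.1 CPM in the wild-type libraries. The 2 sets were split by the overlap of the groups, so the gap between the groups in the first sum is fixed by that split. div-1 mutant library 1 was the highest mutant library in the first sum and the lowest of all 6 in the second. C17H12.8 and dod-22 are in the second set only because that library was low in them, so nothing is read from this.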
